A study of Mus musculus with 20 samples.

Results

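A set of 10 genes that encode little-studied proteins was followed across islets and islet grafts of non-pregnant and pregnant mice. They were Neb, Car8, Lonrf3, Tmem255a, Wipi1, Ogdhl, Slc2a13, Mctp1, Prkd1 and Kcnk10, 10 of the 19938 genes that could be named on the array. They were chosen because their mRNA was higher on day 12.5 of pregnancy in islets, in grafts or in both, so that rise is described below and carries no test. All 10 were measured, each by 1 probe set that names that gene alone. Although they were grouped as intracellular, Slc2a13, Kcnk10, Tmem255a and Mctp1 encode membrane proteins.

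The study asked whether islets of male donors respond to pregnancy as islets of female donors do. All mice were of the C57bl6/J background. The 2 islet groups came straight from the pancreas of females, 4 samples of non-pregnant mice (NP) and 4 taken 12.5 days into pregnancy (P12.5). The 4 graft groups held donor islets, from females or from males, that had sat under the kidney capsule of adult females made diabetic with streptozotocin; each donor sex gave 3 grafts of NP hosts and 3 of P12.5 hosts. Pregnant hosts were mice in which the graft had corrected the diabetes. The mice of the islet groups are not described as given streptozotocin, and their arrays are marked as a reanalysis, so transplantation, streptozotocin and array batch cannot be told apart. Samples are numbered as biological replicates without animal names, and a p-value therefore measures only the spread between samples.

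Levels are log2 values per probe set, and a difference of 1 is a doubling. The values are rounded to 0.1, the median of an array lay between 5.9 and 6.0, and replicates correlated with r between 0.971 and 0.989 over probe sets. NP islet array 1 reached 13.4 at its top and the other arrays at least 14.4. The endocrine label held: the mean level of 9 measured beta cell markers was 10.91 to 11.27 in the islet arrays and 10.53 to 11.18 in the grafts. Grafts also carried host tissue. The mean of 11 kidney markers was 5.23 to 5.36 in the islets and 5.85 to 8.93 in the grafts, and 8 stromal markers averaged 6.46 to 6.99 and 8.73 to 10.59. In such mixed tissue a change in the number of cells of a type and a change in mRNA per cell cannot be told apart.

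Pregnancy raises the demand for insulin, and mouse beta cells meet it by dividing, by secreting more at a given glucose level and by making serotonin. The hormones behind this are prolactin and placental lactogen, which act on the prolactin receptor and on transcription factors of the STAT family. The genes described here encode proteins inside cells or in their membranes. Which cell type carried their mRNA was not tested. Wipi1 and Lonrf3 belong to pathways that remove membranes and proteins, Prkd1 and Mctp1 to signalling and membrane traffic, Car8, Kcnk10 and Slc2a13 to calcium, potassium and inositol handling, and Ogdhl to mitochondrial metabolism. Neb is known from skeletal muscle, and the function of Tmem255a is not established.

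Promoter windows were read to see which of these genes carry a STAT letter pattern near the start of the gene. RefSeq windows (GRCm38.p6, 250 bases before to 50 after the start) were matched for 8 of the 10 genes, 9 windows in all because Kcnk10 has more than 1. The pattern TTCNNNGAA, searched on both strands, occurred in 1 of the 9 windows, that of Wipi1, as TTCTCTGAA 158 bases before the start, and in 8.3% of the 32851 windows of the table. CACGTG, the E-box read by bHLH factors such as those of the MiT and USF families, was looked for after the sequences had been seen. It occurred in the windows of Lonrf3, 45 bases before the start, and Ogdhl, 5 bases before it, and in 7.15% of all windows. A match is a description of letters and not a shown binding site. The 3 windows with a match are given 5′ to 3′ on the strand of the gene, with the match in capitals; they are chr11:109611340-109611639 (minus strand) for Wipi1, chrX:36328159-36328458 (plus strand) for Lonrf3 and chr14:32321769-32322068 (plus strand) for Ogdhl.
Wipi1: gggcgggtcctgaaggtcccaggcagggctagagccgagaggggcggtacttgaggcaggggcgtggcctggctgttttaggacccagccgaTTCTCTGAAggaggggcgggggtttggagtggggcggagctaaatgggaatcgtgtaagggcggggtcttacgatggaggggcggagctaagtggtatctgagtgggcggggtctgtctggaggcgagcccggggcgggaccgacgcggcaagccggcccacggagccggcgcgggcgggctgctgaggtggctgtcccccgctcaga
Lonrf3: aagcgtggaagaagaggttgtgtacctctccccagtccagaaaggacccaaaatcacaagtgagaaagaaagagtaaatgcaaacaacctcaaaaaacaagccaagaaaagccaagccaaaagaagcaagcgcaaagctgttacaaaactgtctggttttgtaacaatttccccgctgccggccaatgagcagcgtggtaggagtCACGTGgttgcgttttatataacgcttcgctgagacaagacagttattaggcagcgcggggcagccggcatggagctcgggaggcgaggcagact
Ogdhl: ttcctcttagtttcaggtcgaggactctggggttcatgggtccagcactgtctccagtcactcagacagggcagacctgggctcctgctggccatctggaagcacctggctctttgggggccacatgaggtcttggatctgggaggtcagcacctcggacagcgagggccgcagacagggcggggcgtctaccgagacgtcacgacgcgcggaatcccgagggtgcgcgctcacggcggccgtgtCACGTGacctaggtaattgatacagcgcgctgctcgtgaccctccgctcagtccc

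Both genes of protein and membrane turnover were higher on day 12.5 at each site. Wipi1 encodes a protein that binds the lipid PI3P on the forming autophagosome. Its level was 7.6, 7.5, 7.6 and 7.6 in the 4 NP islet arrays and 8.8, 9.0, 9.0 and 8.7 in the P12.5 islet arrays. In female grafts it was 7.1, 7.4 and 7.9 in NP hosts and 8.7, 8.7 and 9.2 in P12.5 hosts. In male grafts it was 7.8, 7.5 and 7.7 in NP hosts and 8.7, 8.7 and 8.5 in P12.5 hosts. No P12.5 array lay as low as any NP array. The log2 change was 1.30 ± 0.09 (SE) in islets, 1.40 ± 0.20 in female grafts and 0.97 ± 0.20 in male grafts. The NP islets were the tightest group, and female NP grafts spread over 0.8 units.

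Lonrf3 encodes a protein with a RING finger and a LON domain, features of ubiquitin ligases. NP islets had 5.3, 5.4, 6.0 and 5.8, and P12.5 islets 7.1, 7.4, 7.5 and 7.3. Female grafts had 5.4, 5.5 and 6.3 in NP hosts and 7.3, 7.6 and 6.3 in P12.5 hosts, so the third array of each group met at the same level. Male grafts had 5.2, 5.6 and 5.7 in NP hosts and 7.2, 7.1 and 6.6 in P12.5 hosts, with no overlap. The P12.5 female grafts had an SD of 0.68 for Lonrf3, the widest of any group and gene in the set. Its change was 1.70 ± 0.16 in islets, 1.33 ± 0.33 in female grafts and 1.47 ± 0.33 in male grafts.

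The kinase Prkd1 and the C2 domain protein Mctp1 changed by smaller amounts, with narrow groups. Prkd1 encodes protein kinase D1, a diacylglycerol-responsive kinase that acts at the Golgi in the formation of secretory vesicles. It read 7.4, 7.4, 7.5 and 7.8 in NP islets and 8.4, 8.5, 8.6 and 8.2 in P12.5 islets. It read 7.5, 7.7 and 8.0 in NP and 8.3, 8.6 and 8.3 in P12.5 female grafts, and 7.3, 7.4 and 7.6 in NP and 8.4, 8.4 and 8.3 in P12.5 male grafts. The groups did not overlap at any site, and the closest approach was 0.3 units, in female grafts. The change was 0.90 ± 0.12 in islets, 0.67 ± 0.14 in female grafts and 0.93 ± 0.14 in male grafts.

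Mctp1 encodes a protein with several C2 domains, which bind calcium or lipids, and a membrane anchor. Its level was 5.5, 5.2, 5.2 and 5.4 in NP islets and 6.5, 6.4, 6.6 and 6.4 in P12.5 islets. It was 5.5, 5.5 and 5.7 in NP and 6.7, 6.7 and 6.6 in P12.5 female grafts, and 5.8, 5.6 and 5.7 in NP and 6.6, 6.4 and 6.8 in P12.5 male grafts. The P12.5 arrays of every site stood above all NP arrays. The change was 1.15 ± 0.09 in islets, 1.10 ± 0.12 in female grafts and 0.90 ± 0.12 in male grafts.

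Among the genes of ion and inositol handling, Car8 was changed most. Car8 encodes a member of the carbonic anhydrase family that has lost the enzyme activity and binds the IP3 receptor, the calcium channel of the endoplasmic reticulum. It was at 7.5, 7.4, 7.5 and 7.6 in NP islets and at 9.0, 8.9, 9.2 and 9.1 in P12.5 islets, a 2.93-fold difference. Female grafts gave 7.1, 7.7 and 7.8 in NP and 9.1, 9.3 and 9.3 in P12.5 hosts. Male grafts gave 7.3, 7.3 and 7.5 in NP and 9.0, 9.2 and 8.4 in P12.5 hosts. There was no overlap between host states. The log2 change was 1.55 ± 0.08, 1.70 ± 0.22 and 1.5 ± 0.22 in islets, female grafts and male grafts.

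Slc2a13 encodes HMIT, which carries myo-inositol together with protons. Its level was 7.6, 7.3, 7.7 and 7.7 in NP islets and 8.6, 8.6, 8.8 and 9.0 in P12.5 islets. It was 7.5, 7.7 and 8.1 in NP and 9.1, 8.9 and 8.7 in P12.5 female grafts, and 7.3, 7.2 and 7.2 in NP and 8.7, 8.8 and 8.5 in P12.5 male grafts. NP male grafts were the lowest of the 6 groups. The change was 1.17 ± 0.12 in islets, 1.13 ± 0.16 in female grafts and 1.43 ± 0.16 in male grafts.

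Kcnk10 encodes TREK-2, a background potassium channel of the tandem pore domain family. It had levels of 5.6, 5.6, 5.8 and 5.8 in NP islets and 6.6, 6.7, 6.5 and 6.4 in P12.5 islets. Female grafts had 5.2, 5.3 and 5.4 in NP and 6.3, 6.4 and 6.4 in P12.5 hosts, and male grafts 5.3, 5.4 and 5.4 in NP and 6.6, 6.4 and 6.3 in P12.5 hosts. All P12.5 arrays were above all NP arrays, and every group kept within 0.3 units. The change was 0.85 ± 0.09 in islets and 1.07 ± 0.10 in the grafts of either donor sex.

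Ogdhl encodes a relative of the E1 subunit of the 2-oxoglutarate dehydrogenase complex, which catalyses a step of the citric acid cycle. NP islets read 9.5, 9.4, 9.5 and 9.3, and P12.5 islets 10.5, 10.7, 10.9 and 10.7. Female grafts read 8.8, 8.9 and 8.9 in NP and 10.5, 10.3 and 10.1 in P12.5 hosts, and male grafts 8.4, 8.8 and 8.8 in NP and 10.1, 10.2 and 9.4 in P12.5 hosts. Host states were separated within each site, but P12.5 male graft array 3 lay within the range of the NP islets. The change was 1.27 ± 0.10 in islets, 1.43 ± 0.20 in female grafts and 1.23 ± 0.20 in male grafts.

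Neb and Tmem255a had the largest changes in islets. Neb encodes nebulin, the long protein that lines the thin filaments of skeletal muscle. It was at 5.1, 5.1, 5.2 and 5.3 in NP islets and at 6.8, 6.9, 7.0 and 7.0 in P12.5 islets, a 3.36-fold difference. Female grafts had 5.1, 5.3 and 6.1 in NP and 7.5, 7.2 and 6.9 in P12.5 hosts, and male grafts 5.4, 5.2 and 5.0 in NP and 7.4, 7.5 and 7.2 in P12.5 hosts. No NP array reached a P12.5 array. The log2 change was 1.75 ± 0.08 in islets, 1.70 ± 0.24 in female grafts and 2.17 ± 0.24 in male grafts. The mean of 9 skeletal muscle markers lay between 5.30 and 5.73 on all arrays, below the array medians, and 0 of the 9 was called in islets or in grafts. Neb itself was also low in NP islets, with 29.3% to 31.9% of probe sets below it. In the same arrays the share below was 31.4% to 39.2% for Mctp1, 40.7% to 45.3% for Kcnk10 and 34.5% to 49.6% for Lonrf3. Whether these NP levels differ from background was not tested.

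Tmem255a encodes a membrane protein of the TMEM255 family. It was at 7.6, 7.7, 7.7 and 7.1 in NP islets and at 9.2, 9.4, 9.5 and 9.3 in P12.5 islets, a 3.54-fold difference. Female grafts had 7.6, 7.5 and 8.1 in NP and 9.4, 9.1 and 8.5 in P12.5 hosts, and male grafts 7.3, 7.5 and 7.7 in NP and 8.9, 9.1 and 8.4 in P12.5 hosts. The states were separated at each site. The change was 1.82 ± 0.14 in islets, 1.27 ± 0.25 in female grafts and 1.30 ± 0.25 in male grafts.

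**Figure D1:**
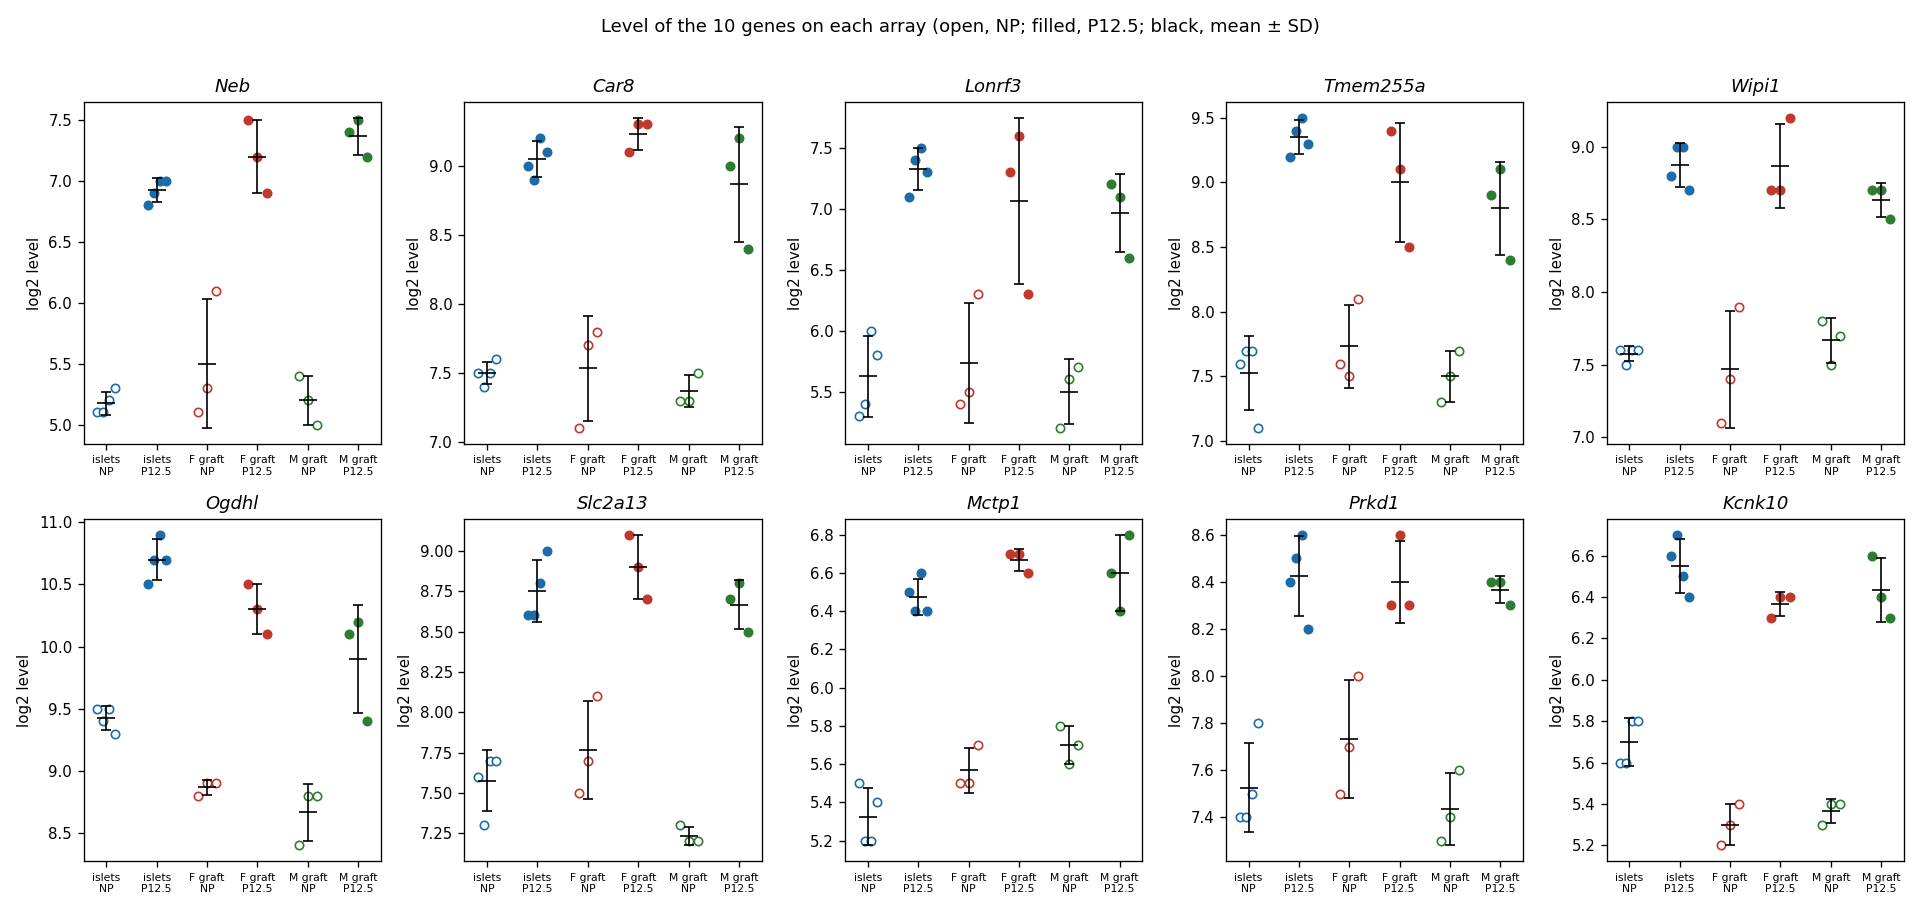
Log2 level of each of the 10 genes on all 20 arrays, by group: islets (blue), female grafts (red) and male grafts (green), with open circles for NP, filled circles for P12.5 and black bars for the mean ± SD. Filled circles lie above the open ones within each site, except for Lonrf3 in female grafts, where an array of each state stood at 6.3; each panel has its own y axis.

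In all, the changes of the 10 genes ran from 0.85 to 1.82 in islets (1.8-fold to 3.54-fold) and from 0.80 to 1.93 in grafts of both donor sexes together (1.74-fold to 3.82-fold). Between the same NP and P12.5 grafts the median change was -0.70 for 11 kidney markers (1 called down), -0.45 for 9 immune markers (2 called down), 0.38 for 8 endothelial markers (0 called) and -0.05 for 9 beta cell markers (1 called down). Their part in the graft changes was not tested beyond the covariate fits given below. Each of the 10 passed an adjusted p of 0.05 and a fold of 1.5 in the limma fit, the rule for a call, in islets (where 0.614% of all probe sets were called up) and in the 12 grafts (1.97%). In female grafts 9 of 10 were called (0.836% of all probe sets) and in male grafts 9 of 10 (0.479%), Lonrf3 being the gene not called in either. These counts restate how the genes were picked. P12.5 arrays lay above all NP arrays for 10 of 10 genes in islets (3.83% of all probe sets), 9 of 10 in female grafts (12.0%), 10 of 10 in male grafts (8.72%) and 9 of 10 in all grafts together (2.32%). Of 1408 probe sets called in grafts 49.6% were higher at P12.5; with the median of each array subtracted it was 32.8% of 1602, and the changes of the 10 genes were then 0.73 to 1.87.

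Ranked by change over the 19938 genes, the islet places ran from 7 (Tmem255a) and 9 (Neb) through 11 (Lonrf3), 14 (Car8), 20 (Wipi1), 21 (Ogdhl), 29 (Slc2a13) and 32 (Mctp1) to 71 (Prkd1) and 78 (Kcnk10). In the grafts Neb took place 5, Car8 7, Lonrf3 13, Ogdhl 16, Tmem255a 18, Slc2a13 19, Wipi1 23, Kcnk10 33, Mctp1 38 and Prkd1 71. Tmem255a thus stood lower and Kcnk10 higher in the order for grafts than in that for islets. The difference between the change in female grafts and that in islets was -0.56 ± 0.30 for Tmem255a, -0.37 ± 0.41 for Lonrf3, -0.23 ± 0.20 for Prkd1 and 0.22 ± 0.13 for Kcnk10. For the other 6 genes it lay between these values, and no test was made because both changes were used in choosing the genes.

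**Figure D2:**
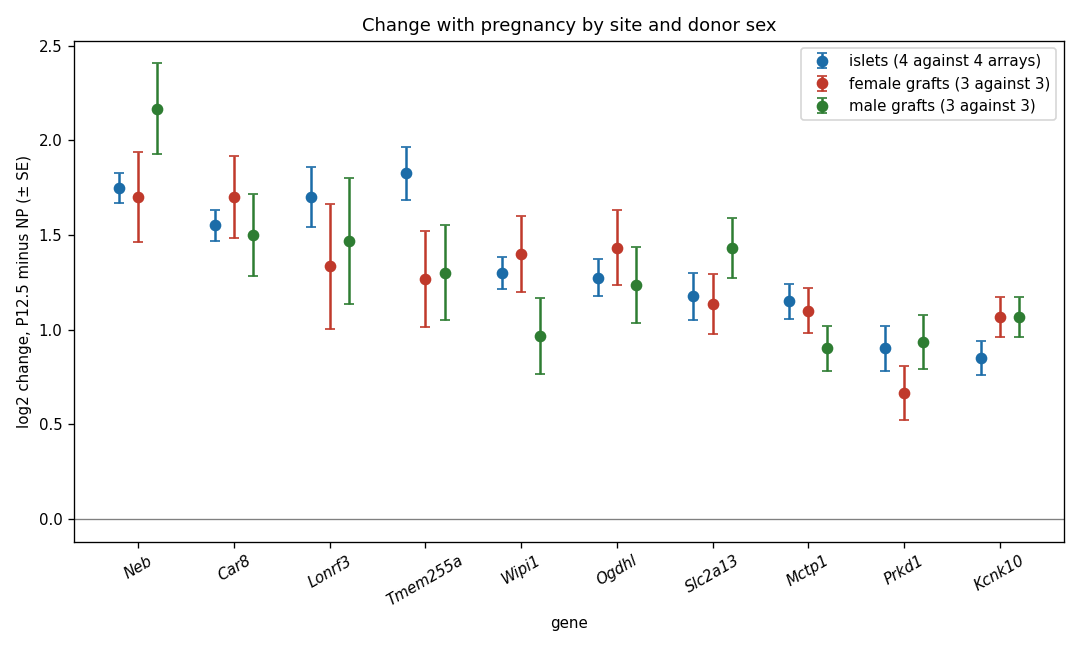
Log2 change from NP to P12.5 (y axis, mean ± SE from the fit) for the 10 genes (x axis) in islets, female grafts and male grafts. All values are above 0, from 0.67 for Prkd1 in female grafts to 2.17 for Neb in male grafts.

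For each gene the 3 P12.5 groups held the 3 highest places in the order of group means. Within a host state, groups next to each other in that order overlapped or touched, with exceptions in Ogdhl and Kcnk10. For Ogdhl the NP islets (9.3 to 9.5) stood above the NP female grafts (8.8 to 8.9). For Kcnk10 the NP islets (5.6 to 5.8) stood above the NP grafts of either donor sex (5.2 to 5.4).

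Donor sex was not part of the choice of these genes and was tested on the 12 grafts. The male minus female difference, averaged over host states, ran from -0.38 to 0.07 and was called for 0 of 10 genes (0.0113% of all probe sets, 4 in number; 1314 had an unadjusted p under 0.05). The lowest adjusted p of the 10 genes in the limma fit was 0.989. Slc2a13 alone had an unadjusted p under 0.05, with -0.38 ± 0.11 (95% interval -0.63 to -0.14). Its levels in NP hosts were 7.2 to 7.3 in male and 7.5 to 8.1 in female grafts, which did not overlap, while in P12.5 hosts 8.5 to 8.8 and 8.7 to 9.1 did. The difference was -0.30 ± 0.14 for Ogdhl (-0.61 to 0.01) and -0.27 ± 0.15 for Car8 (-0.60 to 0.07). Over the 10 genes the median difference was -0.17, beside 0 over all probe sets and -0.13 for the beta cell markers. NP female graft array 3 was high for these genes (mean deviation 0.31) and P12.5 male graft array 3 low (-0.22). Both arrays lower this difference. Among the alternative settings the difference reached 0.125 for Neb, 0.125 for Wipi1 and 0.07 for Lonrf3, so its sign was not stable for these genes. For Mctp1 it ran from -0.02 to 0.08 with arrays left out. It stayed negative in every setting for Slc2a13, Ogdhl, Car8, Prkd1 and Tmem255a, and positive for Kcnk10. Lonrf3 and Tmem255a lie on the X chromosome and gave -0.17 ± 0.23 (-0.68 to 0.35) and -0.22 ± 0.18 (-0.61 to 0.17). The intervals leave room for a difference of 1.5-fold in either Lonrf3 or Tmem255a, so equal levels were not shown.

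The size of the pregnancy change was also compared between donor sexes. The male minus female difference of the change ran from -0.43 ± 0.28 for Wipi1 (95% interval -1.05 to 0.19) to 0.47 ± 0.34 for Neb (-0.28 to 1.21). It was called for 0 of 10 genes and for 0 of the 35511 probe sets (1772 probe sets and 0 of the 10 genes had an unadjusted p under 0.05), and the lowest adjusted p of the 10 genes in the limma fit was 0.955. Kcnk10 had the same change in both, a difference of 0 ± 0.15 (-0.33 to 0.33). For Lonrf3 the interval was the widest, from -0.90 to 1.16, so with 3 arrays a group it still holds a doubling.

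**Figure D3:**
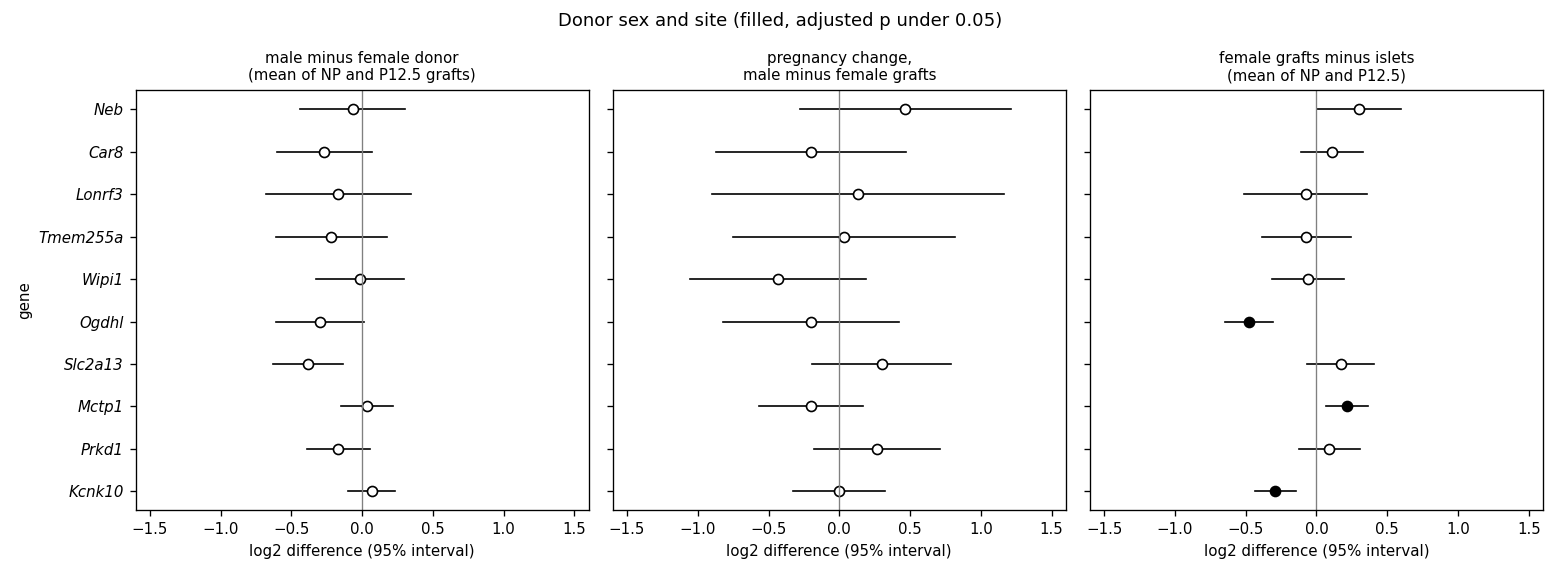
Log2 differences (x axis, circles, with 95% intervals as lines) of the 10 genes for donor sex, for the change with pregnancy by donor sex, and for female grafts against islets. Filled circles mark an adjusted p under 0.05, reached for site by Ogdhl, Kcnk10 and Mctp1 and in no other panel.

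The transplantation site was compared between female grafts and islets, averaged over host states, a difference that was also not part of the choice. Its p-values do use the spread within the arrays on which the genes were chosen. None of the 10 genes was called with the fold minimum (7.94% of all probe sets were), and 3 of 10 passed the adjusted p alone (33.8% of all probe sets), a share near that of the whole array. Ogdhl was lower in the grafts by -0.48 ± 0.08 (adjusted p = 0.000492, limma), lower in both host states. Kcnk10 was lower by -0.29 ± 0.07 (adjusted p = 0.00512, limma), with -0.40 in NP and -0.18 in P12.5. Mctp1 was higher by 0.22 ± 0.07 (adjusted p = 0.0278, limma), and leaving out 1 array raised that adjusted p over the threshold for 7 of 14 arrays, to between 0.0514 and 0.0611. With grafts of both donor sexes the Ogdhl difference reached -0.63 and was called (adjusted p = 7.38e-05, limma), 1 of 10 genes beside 8.24% of all probe sets; 3 of 10 genes again passed the adjusted p alone (42.4% of all probe sets, with 28.3% of all probe sets lower in grafts), Ogdhl and Kcnk10 lower and Mctp1 higher.

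The other 7 genes differed between the sites by -0.07 to 0.30. Neb had 0.30 ± 0.14 (adjusted p = 0.109, limma), which became 0.40 (adjusted p = 0.0331) without NP female graft array 1, as did Car8 with 0.11 and 0.22 (adjusted p = 0.0352). Across the same contrast 10 of 11 kidney markers, 8 of 8 stromal markers and 7 of 9 immune markers were called higher in the grafts, 5 of 7 acinar and 5 of 8 endothelial markers lower, and 0 of 9 beta cell markers either way. With the kidney list as a covariate the difference was -0.40 ± 0.26 for Ogdhl (adjusted p = 0.470), 0.31 ± 0.23 for Mctp1 (adjusted p = 0.525) and -0.14 ± 0.22 for Kcnk10 (adjusted p = 0.791). None passed, and all 3 SEs were larger than without the covariate. The kidney markers averaged 5.23 to 5.36 in the islet arrays and 5.85 to 8.93 in the female grafts, without overlap. The covariate thus goes with the site, and this fit cannot separate kidney tissue from the site. The part of kidney or other cell types in these differences was not tested further.

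In 3 of the 4 graft groups single arrays stood to one side of the group mean for most of the 10 genes. NP female graft array 3 was the highest of its group, ties included, for 10 of 10 genes, on average 0.31 above the group mean, and array 1 the lowest for 9 of 10 (mean -0.24). P12.5 male graft array 3 was the lowest for 9 of 10 (mean -0.22) and P12.5 female graft array 3 for 7 of 10 (mean -0.17). The NP male grafts had mean deviations of -0.05, -0.01 and 0.07, with array 1 the highest for 4 genes and the lowest for 6, and no islet array had a mean deviation beyond 0.12. The beta cell markers averaged 10.88, 10.96 and 11.14 in NP female graft arrays 1 to 3, 10.97, 11.04 and 10.53 in P12.5 male grafts and 11.18, 11.11 and 10.84 in P12.5 female grafts. The stromal markers averaged 10.59 in P12.5 male graft array 3 and 10.09 in P12.5 female graft array 3, the highest of their groups. The part of tissue content in the deviations was not tested. Without NP female graft array 3 and P12.5 male graft array 3 the changes in grafts were 0.88 to 2.13, with the beta cell list as a covariate 0.82 to 1.97 and with the kidney list 0.76 to 1.85.

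**Figure D4:**
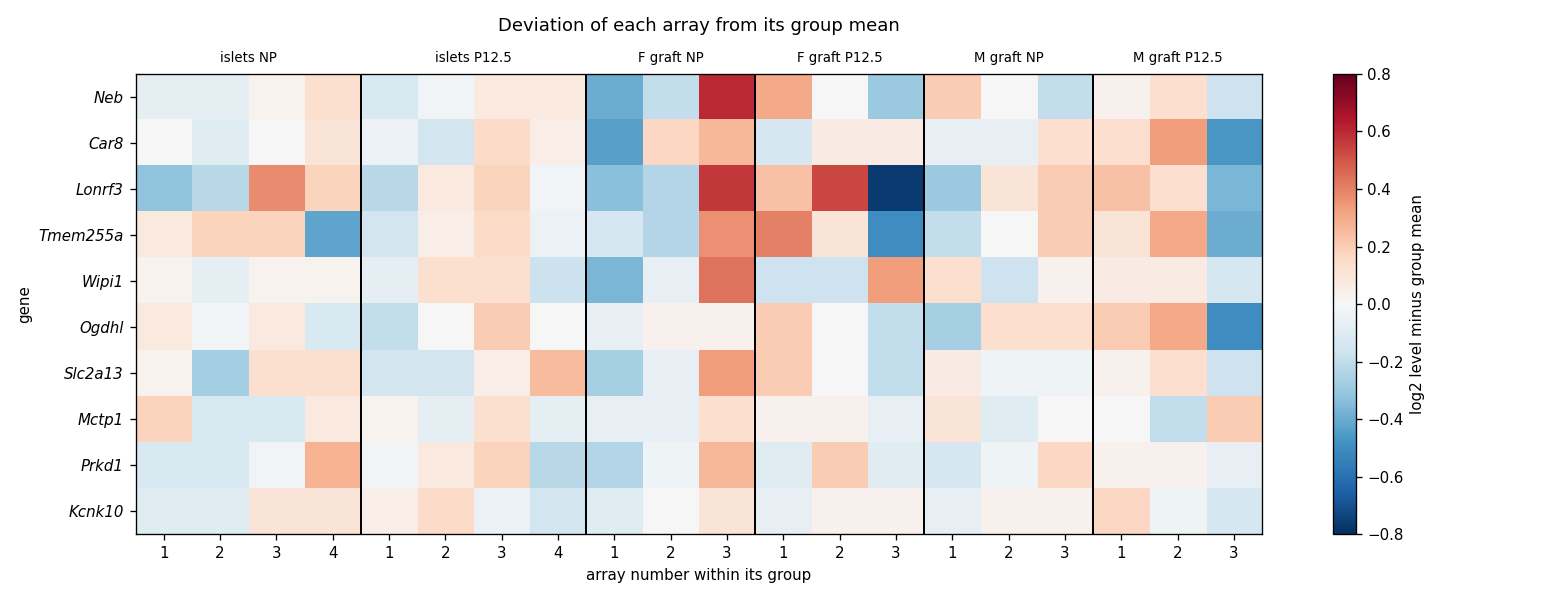
Deviation of each array (x axis, by group and array number) from the mean of its group for the 10 genes (y axis), in log2 units from blue (below) to red (above). The column of NP female graft array 3 is above 0 throughout, by 0.31 on average, and that of P12.5 male graft array 3 is below 0 in all rows but Mctp1.

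Over the 20 arrays the 45 pairs of these genes correlated with r between 0.722 and 0.960 (median 0.907), and with the group means taken out between -0.40 and 0.84 (median 0.40). The arrays share the NP and P12.5 groups, so a high r is what the choice of the genes leads to and is given as a description. The genes outside the set with the closest pattern over the 20 arrays were Kirrel3os (r = 0.977) for Neb, Chgb for Car8 (0.987) and Prkd1 (0.956), Aldh9a1 for Lonrf3 (0.965), Tph2 for Tmem255a (0.967), Tph1 for Wipi1 (0.961), Chmp7 for Ogdhl (0.964), Ern1 for Slc2a13 (0.964), Matn2 for Mctp1 (0.965) and Prok1 for Kcnk10 (0.958). Chgb, which encodes the secretory granule protein chromogranin B, also came second for Neb (0.964), Slc2a13 (0.960) and Wipi1 (0.958). The remaining second places went to Fkbp11 for Car8 (0.964) and Kcnk10 (0.954), Enox1 for Lonrf3 (0.962), Ivd for Tmem255a (0.966), B3galnt1 for Ogdhl (0.962), Tnfrsf11b for Mctp1 (0.964) and Cldn8 for Prkd1 (0.947). Tph1 and Tph2 encode the enzymes that start serotonin synthesis, and Ern1 encodes IRE1, a sensor of unfolded proteins in the endoplasmic reticulum.

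Relatives of the 10 genes were compared by lists of family members and pathway partners. The lists were chosen with earlier results of these data known, so the shares called and the p-values of relatives are not an independent comparison. Of 184 list entries 177 were measured, and in islets 3 were called up and 0 down (1.69%, beside 0.724% of all probe sets in either direction). In grafts 2 were called up and 3 down (2.82%, beside 3.96%). The median change over the relatives was 0 in islets and -0.03 in grafts, beside 0 and 0.02 over all probe sets.

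For the genes other than Car8, near relatives were picked from these lists after their values had been seen. Those named here were not called in either setting, which the late choice may have favoured. The relatives of Car8, some of them called, are given further below. In islets Nebl changed by 0.03, Lonrf1 by -0.15, Lonrf2 by -0.08, Wipi2 by 0.05, Ogdh by 0.20 and Mctp2 by -0.18. Prkd2 changed by -0.05, Prkd3 by -0.03, Kcnk2, which encodes TREK-1, by -0.10, Tmem255b by 0, Slc2a2 by -0.08 and Slc5a3, a sodium-coupled inositol carrier, by -0.08. In grafts Mctp2 fell by 0.55 (adjusted p = 0.0187, limma) and Slc2a2, which encodes the beta cell glucose carrier GLUT2, by 0.57 (adjusted p = 0.0273, limma), both short of the fold minimum. The other 10 of these relatives lay between -0.30 and 0.18 in grafts.

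The carbonic anhydrase list, with IP3 receptors, held both relatives of Car8 that moved in islets. Car15 was at 8.2, 7.9, 7.7 and 7.9 in NP islets and at 9.2, 9.0, 8.9 and 8.9 in P12.5 islets. It rose by 1.08 ± 0.12 (adjusted p = 0.00261, limma), and in grafts the change was 0.33 ± 0.16 (adjusted p = 0.192, limma). Car5b, the mitochondrial enzyme VB, was at 4.6, 4.9, 4.6 and 4.6 in NP islets and at 5.7, 5.5, 5.7 and 5.5 in P12.5 islets. The rise was 0.93 ± 0.10 (adjusted p = 0.00208, limma), a call lost with all 20 arrays in 1 fit (adjusted p = 0.121) and with the replicate number as a block (adjusted p = 0.0601). The NP levels were near the lower quartile of the arrays (4.7 to 4.9) and the P12.5 levels below the array medians. A filter asking for a level of at least 6 in 3 arrays left Car5b out. In female grafts Car5b went the other way, from 6.9, 7.0 and 7.0 in NP hosts to 6.4, 6.2 and 6.1 in P12.5 hosts. The difference between the changes was -1.66 ± 0.15. It is given without a test, because Car5b was taken up for its islet rise, which is part of that difference. The kidney markers fell alongside in those grafts, from 7.97 to 8.93 in NP to 5.85 to 7.33 in P12.5 hosts, and their part was not tested. Car10, an inactive family member as Car8 is, fell by 0.72 ± 0.19 in grafts (adjusted p = 0.0329, limma), a call that was lost without any 1 of 7 of the 12 arrays (adjusted p up to 0.0781) and with the kidney list as covariate, where the change was -0.78 (adjusted p = 0.0665). The other 14 of 17 list members were not called in either setting; Car3 had the largest graft change, -1.53 ± 0.70 (adjusted p = 0.161, limma).

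Of 34 autophagy genes listed for Wipi1, 0 were called in islets, where the largest change was 0.33 ± 0.08 for Gabarap (adjusted p = 0.0975, limma). In grafts 2 close relatives of the ATG8 family, whose proteins are attached to autophagosome membranes, moved in opposite directions. Gabarap rose by 0.65 ± 0.11 (adjusted p = 0.00661, limma), from 10.2 to 10.6 in NP to 10.8 to 11.2 in P12.5 grafts. Gabarapl1 fell by 0.68 ± 0.14 (adjusted p = 0.0134, limma), from 9.3 to 10 in NP to 8.7 to 9.1 in P12.5 grafts. Neither pair of ranges overlapped. The Gabarap change came under the fold minimum without NP male graft array 2 or with array medians subtracted (0.58 each) and the Gabarapl1 change without NP male graft array 3 (-0.58), and neither was called when the kidney list entered the fit (0.57 with adjusted p = 0.0255 for Gabarap and -0.62 with adjusted p = 0.0506 for Gabarapl1).

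Of the 27 C2 domain membrane proteins listed for Mctp1, Esyt1 moved at both sites. It encodes extended synaptotagmin 1, a lipid-transfer protein that ties the endoplasmic reticulum to the plasma membrane. Its level was 9.2, 9.3, 9.3 and 9.0 in NP islets and 10.1, 10, 10.2 and 10.1 in P12.5 islets, and it rose by 0.90 ± 0.09 (adjusted p = 0.00138, limma). In grafts, 9.0 to 9.4 in NP and 9.7 to 10.2 in P12.5 hosts gave a rise of 0.73 ± 0.11 (adjusted p = 0.00358, limma). Syt14 fell in grafts by 0.63 ± 0.18 (adjusted p = 0.0448, limma), a call that was lost without any 1 of 9 of the 12 arrays (adjusted p up to 0.0981) and with the kidney list as covariate, where the change was -0.62 (adjusted p = 0.111).

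In the other lists 0 genes were called in islets or grafts. The 23 sarcomere genes and nebulin relatives had islet changes of -0.40 to 0.30, the extreme being Tmod1, which caps thin filaments (-0.40 ± 0.10, adjusted p = 0.107, limma). The 22 citric acid cycle and related genes had islet changes of -0.05 to 0.35, with a median of 0.09 and Suclg1 at the top, while the graft median was -0.10. The 7 LON genes ran up to 0.25 (Clpx), the 15 SLC2 and inositol genes up to 0.38 (Slc2a6), the 16 kinase genes down to -0.23 (Kidins220) and the 15 potassium channel genes down to -0.25 (Kcnk3) in islets. These values stand beside islet changes of 0.85 to 1.82 for the 10 genes, whose choice fixed that they were higher.

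**Figure D5:**
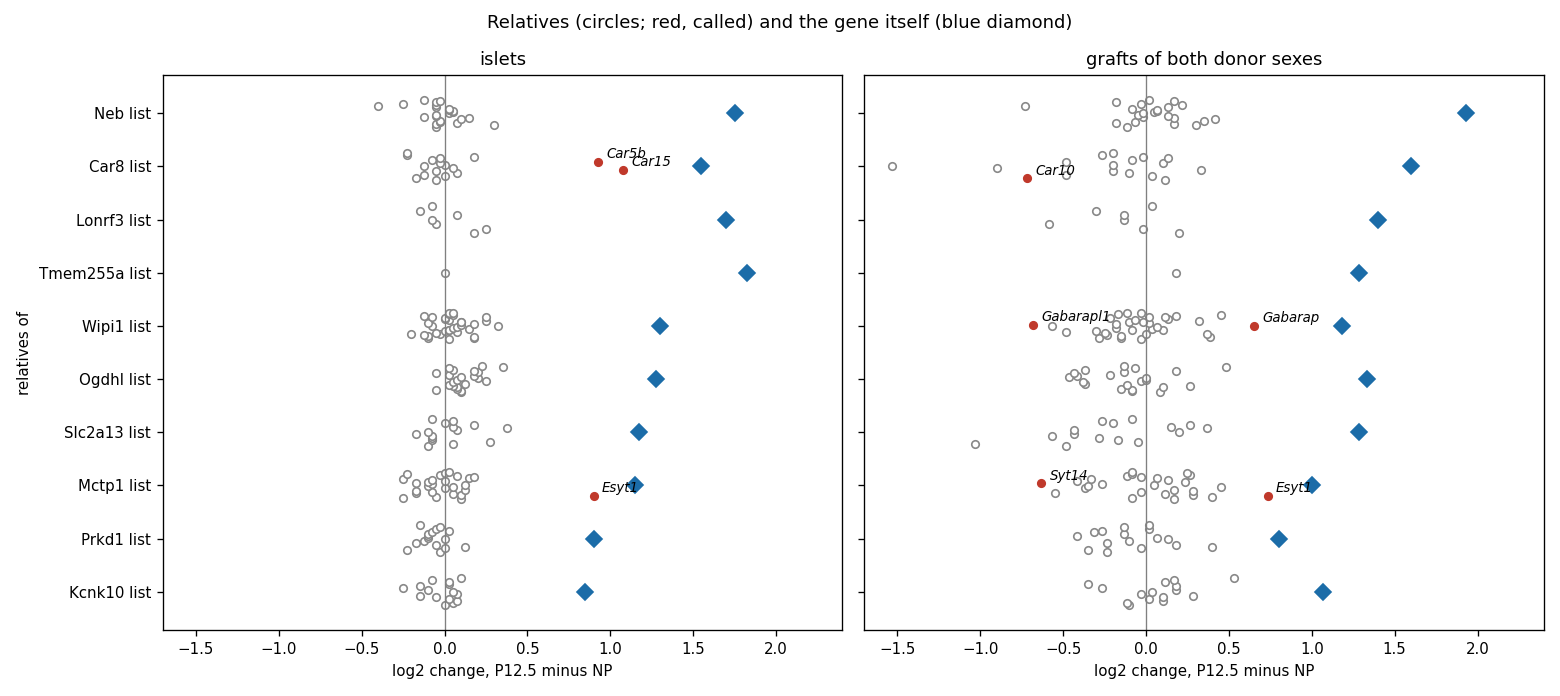
Log2 change from NP to P12.5 (x axis) of the relatives in each list (rows; circles, red and named where called) and of the gene the list belongs to (blue diamonds), in islets and in grafts of both donor sexes. In islets Car5b, Car15 and Esyt1 are the called relatives, and in grafts Gabarap and Esyt1 rose and Car10, Gabarapl1 and Syt14 fell.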

How the data were processed

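Transcript levels of 20 samples in 6 groups were measured on Affymetrix MoGene 1.0 ST arrays. The authors deposited log2 values, 1 per probe set, from robust multichip analysis; the submitters' notes name R 2.12.2. They are rounded to 0.1, which limits small differences. For the array annotation the genome build is not given in the sources used. The table holds 35511 probe sets, of which 21789 carry 1 symbol, 1621 several and 12101 none; a gene was read from the probe set of highest mean among those naming it alone. Arrays have no read depth, and their number limits the precision.

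Group means were fitted with limma 3.58.1 (R 4.3.3; lmFit, eBayes) on all probe sets, without a filter, and p-values were Benjamini-Hochberg adjusted over all of them. A call needed an adjusted p under 0.05 and a fold of at least 1.5. Islets (8 arrays), grafts (12 arrays) and female grafts with islets (14 arrays) were fitted separately; the comparisons of islets with female grafts and of female with male grafts share arrays with the others. Samples were grouped by their titles. The fits were tested on simulated data. The 10 genes, the lists of relatives and the marker lists were chosen with earlier results of these data known. Named relatives were those called in either setting and the largest islet change in each list. Others were near relatives picked after their values had been seen, and Car3 for the largest graft change in its list. Genes alike in pattern were the 2 with the highest Pearson correlation. Alternatives were array medians subtracted, repeated quantile normalization, a replicate block, a filter (level of at least 6 in 3 arrays), a variance trend, array weights, no fold minimum, all arrays in 1 fit, marker lists as covariates, other site contrasts and each array left out. The titles do not say that equal replicate numbers pair the samples, and the main fits had no block. Of 16 correlations of their deviations 5 were over 0.1 (range -0.24 to 0.37, the highest between P12.5 male and female graft arrays 3). Whether equal numbers share a batch cannot be told from these values. Figures were drawn with matplotlib 3.10.9.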

Additional observations from a re-analysis of the deposited data

Results flagged for a closer look

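Within the groups of 4 arrays, 2 of 20 sets of values had an array set apart from the rest. The values are rounded and the sets share arrays, so no chance rate is given for this count. Tmem255a was at 7.1 in NP islet array 4 and at 7.6 to 7.7 in the other 3 NP islet arrays; the pregnancy change without that array was 1.68. Wipi1 was at 7.5 in NP islet array 2 and at 7.6 in the other 3, a gap of 1 rounding step.

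Among the relatives called for pregnancy, the change of Car5b was flagged as unlike in female grafts and islets, by -1.66 on the log2 scale. The flag asked for an adjusted p under 0.05 for that difference. Car5b was looked at because of its islet rise, which is part of the difference, so the flag is not a test and no p-value is given. The kidney markers also fell in female grafts, from 7.97 to 8.93 in NP to 5.85 to 7.33 in P12.5 hosts. Their part was not tested. All 4 P12.5 islet arrays lay above the NP islet arrays, and all 3 P12.5 female graft arrays lay below the NP female graft arrays. In male grafts the ranges overlapped, 6.2 to 7.1 in NP and 5.4 to 7.0 in P12.5 hosts.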

How the results depend on the processing

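The pregnancy changes of the 10 genes were positive under every alternative run, at 0.79 to 1.89 in islets and 0.73 to 2.13 in grafts, and at 0.80 to 1.88 and 0.74 to 2.08 with each array left out; none moved by over 1 SD. Counts of called probe sets moved more. The 257 calls in islets became 475 without the fold minimum, 161 with the beta cell list as a covariate (chosen after seeing the data) and 184 to 299 with arrays left out; the 1408 in grafts became 4602, or 768 with the kidney list as a covariate, and 947 to 1724. The 5 relatives called in grafts became 8 with array medians subtracted, 29 without the fold minimum, 2 with the kidney list and 2 to 10 with arrays left out. They were 3 without P12.5 female graft array 3 or NP female graft array 3, 8 without P12.5 male graft array 2, 10 without NP male graft array 1 and 2 without NP male graft array 2 or 3. The 3 called in islets stayed 3 whichever array was left out. For donor sex the 4 calls became 56 with all 20 arrays in 1 fit, and 4 to 49 with arrays left out, 49 without P12.5 male graft array 2; none of the 10 genes was among them in any setting. For site the 2821 calls became 11996 without the fold minimum, 44 with the kidney list, 1838 in P12.5 alone and 2592 to 2936 with arrays left out; of the 10 genes 3 were called without the fold minimum and 1 with grafts of both donor sexes, where 0 were called otherwise. The cause of these shifts was not tested, apart from the fold minimum itself. Kcnk10 (-0.18, adjusted p = 0.250) and Mctp1 (0.19, adjusted p = 0.242) did not pass for site in P12.5 alone, and Neb passed with the beta cell list as a covariate (0.57, adjusted p = 0.0042). Each gene has 1 probe set, so averaging probe sets changes nothing.

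With the replicate number as a block, calls numbered 132 in islets, 1287 in grafts, 4 for donor sex, 1 for donor sex by pregnancy (0 without the block) and 2499 for site, and 2 relatives were called in islets and 4 in grafts. Car5b in islets (adjusted p = 0.0601; 0.121 with all 20 arrays in 1 fit), Syt14 in grafts (adjusted p = 0.0734) and Mctp1 for site (adjusted p = 0.0673) were past the threshold without the block only. Whether equal numbers share a batch is not known.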
